A study of Mus musculus with 38 samples.

Results

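The thermogenic genes of brown fat were followed in stromal vascular cells of epididymal fat. They were Ucp1, Cidea, Cpt1b, Dio2, Ppargc1a, Cox7a1, Cox8b, Elovl3 and Prdm16, that is 9 of the 29411 gene names on the array. They were chosen by name, and all 12 probes that carry one of these names were taken out of 40628 probes. Ucp1, Cpt1b and Ppargc1a had 2 probes each and the other genes 1. Tcf21, a transcription factor of visceral white fat and mesothelial cells, was read on the same arrays. The cells came from C57BL/6J mice that entered the diets as weanlings of 3 to 4 weeks of age. The labels call them infiltrating macrophages of epididymal fat. LFC mice ate a low fat diet with 10% of calories from fat (10 arrays) and HFC mice a high fat high sucrose diet with 60% (10 arrays). HF5, HF20 and HF75 mice ate the high fat high sucrose diet with 5, 20 or 75 µg of KAL-1, a botanical formulation (6 arrays each). LFC and HFC were read at days 6, 10 and 14 (D6, D10, D14) and at weeks 0, 3, 6, 9, 12, 15 and 18 (W0 to W18), and the doses from W3 on. Weeks were counted from day 14, so D14 and W0 are the same elapsed day with separate arrays, and the 10 labelled time points cover fewer distinct days. Each diet and time is represented by 1 array. The labels do not say whether an array holds RNA of 1 animal or a pool.

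The level of a probe is its log2 signal minus the log2 75th percentile of its array, so that a level of 0 is the signal of the 75th percentile. The 75th percentile ran from 25.8 scanner units on HF5 W12 to 1983 on HFC W0, and between 40.1% and 91.6% of probes were well above background. At 9 of 10 time points HFC gave the brighter array of HFC and LFC. Of 11 macrophage markers, which the labelled cells should carry, at least 8 were well above background on every array and all 11 on 33 of the 38. Of the libraries, 3 stand apart in the genes described here: LFC D6, LFC D10 and HF5 W12. They were singled out after their values were seen, so they are described array by array, and the fitted differences and slopes that they enter are also given without them. HF5 W12 was the dimmest of the 38 arrays. Spots marked as outliers by the scanner software were left out, a median of 48.5 per array but 4850 on HFC W12, 6257 on HF75 W12 and 922 on HFC D10. For 4 arrays of the last 2 weeks, all of HF5 or HF20, title and diet label give different doses, and the title was followed.

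Brown fat burns fuel to make heat. UCP1 lets protons leak back across the inner mitochondrial membrane, so that the energy of fatty acid oxidation is released as heat instead of ATP. Noradrenaline from sympathetic nerves acts on beta adrenergic receptors, cyclic AMP rises, lipid is broken down and the transcription of Ucp1 is raised through CREB family factors, nuclear receptors and the coactivator PGC-1alpha. Epididymal fat is a visceral white depot that holds few brown or beige adipocytes, and the stromal vascular fraction is meant to be free of mature adipocytes.

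The letters just before the start site are shown for 5 members, because cyclic AMP acts through elements of this kind. Ucp1, Cox7a1 and Cox8b were high on the 3 arrays named above, while Dio2 and Ppargc1a were not set apart there. Of the 9 members 6 were matched by symbol in the RefSeq promoter table, and the 250 bases before the annotated start are printed 5′ to 3′ on the gene's strand, from build GRCm38.p6. Capitals mark TGACG (the core of the CREB element, TGACGTCA in full), AGGTCA (the core letters of many nuclear receptor elements) and TATAAA (the TATA box), on either strand. Cox7a1 and Cox8b held none of these motifs in this window.
Ucp1, chr8:83290098-83290347, plus strand: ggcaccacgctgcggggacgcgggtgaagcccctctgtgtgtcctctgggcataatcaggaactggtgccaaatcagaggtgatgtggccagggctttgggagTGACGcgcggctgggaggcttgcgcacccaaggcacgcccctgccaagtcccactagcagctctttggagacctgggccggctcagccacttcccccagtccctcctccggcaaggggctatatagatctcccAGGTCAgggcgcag
Dio2, chr12:90739039-90739288, minus strand: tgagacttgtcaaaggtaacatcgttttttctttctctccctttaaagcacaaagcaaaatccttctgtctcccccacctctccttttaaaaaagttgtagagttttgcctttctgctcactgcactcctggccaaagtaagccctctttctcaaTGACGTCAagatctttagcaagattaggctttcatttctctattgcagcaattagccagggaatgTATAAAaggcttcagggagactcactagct
Ppargc1a, chr5:51567726-51567975, minus strand: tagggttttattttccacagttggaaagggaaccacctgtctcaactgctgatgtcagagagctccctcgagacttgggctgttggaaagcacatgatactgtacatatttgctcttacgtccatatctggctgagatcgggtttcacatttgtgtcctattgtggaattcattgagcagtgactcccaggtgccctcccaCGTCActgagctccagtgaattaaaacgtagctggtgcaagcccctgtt
Cox7a1, chr7:30183921-30184170, plus strand: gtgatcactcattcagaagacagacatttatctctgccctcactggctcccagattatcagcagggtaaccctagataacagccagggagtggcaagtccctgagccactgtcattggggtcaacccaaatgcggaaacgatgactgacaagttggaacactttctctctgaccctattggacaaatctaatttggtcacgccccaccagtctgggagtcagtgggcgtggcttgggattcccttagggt
Cox8b, chr7:140900447-140900696, minus strand: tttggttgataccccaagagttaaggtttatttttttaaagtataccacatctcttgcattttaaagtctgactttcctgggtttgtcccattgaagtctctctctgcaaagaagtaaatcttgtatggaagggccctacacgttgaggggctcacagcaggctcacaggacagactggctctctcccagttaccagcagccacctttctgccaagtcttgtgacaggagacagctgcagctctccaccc
The TGACG of Ucp1 starts 147 bases before the start site, and its AGGTCA 14 bases before it. Dio2 held the full TGACGTCA 95 bases and a TATAAA 30 bases before the start site. The TGACG of Ppargc1a lies on the other strand, 49 bases before the start site. TGACG is found in 17.8% of all 32851 promoter windows of this length, TGACGTCA in 1.55%, AGGTCA in 14.0% and TATAAA in 12.4%, where a TGACGTCA also counts as TGACG, once on each strand. The Ucp1 window had 12 CG pairs and a GC content of 64.8%, against medians of 6 and 52.4% over all windows. Cox7a1 and Cox8b had 4 and 1 CG pairs. A match is a description of the letters and no evidence of binding.

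Ucp1, the proton channel that defines brown fat, was at a low level on nearly all arrays and at a high level on LFC D6, LFC D10 and HF5 W12. The brighter of its probes (GT_Mm_44k_51_P426353) had levels of 3.83, 5.11 and 6.93 there. On the other 35 arrays it lay between -6.35 (HFC W18) and -2.46 (HFC D6), with a median of -4.70, and it was well above background on 31 of them. In LFC the lowest, median and highest levels were -5.36, -4.03 and 5.11, and in HFC -6.35, -4.28 and -2.46. The doses gave -5.85, -4.23 and 6.93 in HF5, -5.48, -4.65 and -4.58 in HF20, and -6.11, -5.03 and -3.15 in HF75. The gap of 6.29 log2 between LFC D6 and the next array, HFC D6, held no array. The other probe of Ucp1 (GT_Mm_44k_01487) was at -0.70, 1.68 and 3.72 on the same 3 arrays. Elsewhere it was well above background on 2 of 34 arrays, and its highest level there was -2.95 on HF75 W12. On HFC W12 both its spots were left out as outliers, and as deposited they read -2.62 and -2.04. Both probes thus put the same 3 arrays on top, in the same order. In scanner units the brighter probe read 3247 on LFC D6, 9046 on LFC D10 and 3149 on HF5 W12, against at most 145 on any other array.

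Array brightness moved with these values, since LFC D6 and LFC D10 had 75th percentiles of 228.9 and 261.6 scanner units and HF5 W12 of 25.8. All 3 were among the 5 dimmest arrays. On the other two of these Ucp1 was not well above background, at -5.36 on LFC W18 (229.8 scanner units) and -5.46 on HF75 W3 (88.4 scanner units). The part of brightness in these levels was not tested. HFC D6 and HFC D10, on the same slide and scan day as the LFC array of their time point, had Ucp1 at -2.46 and -5.05.

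Cidea, a lipid droplet protein of brown fat that is also found in white adipocytes, was measured well above background on all 38 arrays. Its levels were 5.55 on LFC D6, 6.08 on LFC D10 and 7.60 on HF5 W12. The other 35 arrays ran from -2.80 (HF5 W6) to 4.14 (LFC W12), with a median of -0.26. LFC W12 and LFC W9 (2.27) came next below the 3 arrays, and both were among the arrays with the highest adipocyte markers. By diet the medians were 0.92 in LFC, -0.38 in HFC, 0.11 in HF5, -0.997 in HF20 and 0.08 in HF75, and the ranges of all diets overlapped.

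Elovl3, an enzyme that elongates fatty acids and is induced in brown fat by cold, was close to background on most arrays. It was well above background on 8 of 37 arrays, 3 of which were LFC D6 (-2.19), LFC D10 (-2.61) and HF5 W12 (-0.72). The highest other level was -4.64 on LFC W12. In HF20 it was well above background on 0 of 6 arrays. This probe did not pass the filter of the tests below.

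Cox7a1 and Cox8b are the heart, muscle and brown fat forms of subunits of cytochrome c oxidase, the last complex of the respiratory chain. Cox7a1 was at 4.65, 4.79 and 6.999 on LFC D6, LFC D10 and HF5 W12, and between -0.77 and 2.61 on the other 35 arrays. Its medians were 1.40 in LFC, 0.42 in HFC, 0.31 in HF5, 0.11 in HF20 and 0.85 in HF75, with LFC highest and all ranges overlapping. Cox8b was at 4.14, 4.20 and 6.94 on the 3 arrays, and between -4.47 and 3.89 on the others. The 3 arrays lay above all others for both genes, but for Cox8b the next array, LFC W12, was close to LFC D6. The medians of Cox8b were 0.59 in LFC, -2.38 in HFC, -1.84 in HF5, -2.64 in HF20 and -1.47 in HF75. Cox8b was also high on LFC W6 (2.58), HFC W9 (1.80) and LFC W9 (1.43). On these arrays Ucp1 was low, at -3.98, -3.72 and -4.98. LFC W6 also had the highest skeletal muscle score of the 38 arrays (4.38), and the part of muscle RNA in the level of Cox8b was not tested.

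Cpt1b, the muscle and brown fat form of the enzyme that brings fatty acids into mitochondria, gave a smaller difference. The brighter probe (GT_Mm_44k_51_P232913) was at 0.21 on LFC D6, 0.19 on LFC D10 and 2.77 on HF5 W12, and at most at -0.50 (LFC W18) elsewhere. The other probe (GT_Mm_44k_52_P625508) was at -2.06, -0.88 and -0.13. There LFC D6 was overlapped by HF75 W6 (-2.0005) and LFC W6 (-2.06), so the probes of Cpt1b disagree on LFC D6.

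Dio2, the deiodinase that makes active thyroid hormone inside brown fat cells, was not set apart on these arrays. Its levels were -2.80 on LFC D6, -1.50 on LFC D10 and -0.80 on HF5 W12, inside the range of the other arrays from -4.57 (LFC W12) to 1.06 (HFC W9). The highest level of Dio2 belonged to HFC W9, an array on which Ucp1 was at -3.72, and the next was -0.77 on HF5 W15. The medians by diet ran from -3.21 in HF20 to -1.97 in HF5.

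Ppargc1a, which encodes PGC-1alpha, and Prdm16, a regulator that directs precursors to the brown fate, act upstream of the genes above. The brighter probe of Ppargc1a (GT_Mm_44k_51_P279038) was at -1.98 on LFC D6, -0.25 on LFC D10 and -0.11 on HF5 W12, ranks 30, 10 and 9 of 38. Its highest levels were on HFC W15 (0.81) and LFC W12 (0.56). The other probe (GT_Mm_44k_52_P5945) had ranks 18, 17 and 6, and on HF5 W12 it was not well above background. Prdm16 was at 0.89, 1.58 and 2.002 on the 3 arrays, and between -1.34 (HF75 W3) and 1.63 (HF20 W6) elsewhere. HF5 W12 held the highest level of Prdm16, but 6 of the other arrays were at or above LFC D6. The upstream genes thus did not share the separation seen for Ucp1, Cidea, Cox7a1 and Elovl3.

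**Figure D1:**
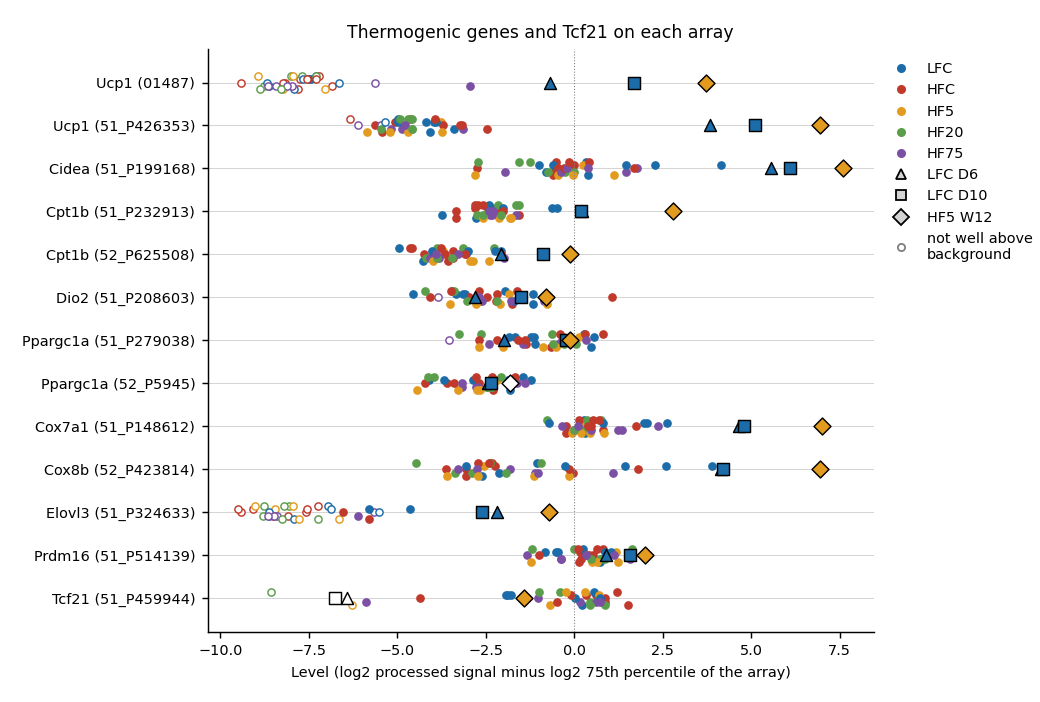
Each row is a probe (probe number in brackets) and each point an array, on a log2 scale relative to the 75th percentile of the array, coloured by diet and open where the probe was not well above background. LFC D6, LFC D10 and HF5 W12 lie to the right of all other arrays for both Ucp1 probes, Cidea, Cox7a1, Cox8b, Elovl3 and 1 Cpt1b probe, and inside the others for Dio2 and Ppargc1a.

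For 7 of the 12 member probes, which belong to 6 genes, the 3 highest of all arrays were LFC D6, LFC D10 and HF5 W12. Of the 38631 probes well above background on at least 2 arrays, 511 (1.32%) had the same 3 arrays on top. The arrays were picked by the level of Ucp1, so this is a description and no test. The order differs after normexp correction, which adds an offset of 50 scanner units to every signal. HF5 W12, the dimmest array, has a 75th percentile of 25.8 scanner units, so the offset alone shrinks its levels. After normexp correction, HF5 W12 held rank 3 for the brighter Ucp1 probe and for Cox7a1 but rank 4 for Cidea and Cox8b, while LFC D10 held rank 1 for Ucp1, Cidea and Cox7a1. LFC D6 held rank 5 for the other Ucp1 probe, and for Elovl3 LFC D6 and LFC D10 held ranks 11 and 13. After normexp the 3 arrays thus stayed on top for 3 of the 7 probes, the brighter probes of Ucp1 and Cpt1b and that of Cox7a1. Under quantile scaling the 3 arrays stayed on top for the same 7 probes.

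Tcf21 went the opposite way on LFC D6 and LFC D10. It was at -6.42 and -6.77, not well above background, against a median of 0.19 on the other arrays. On HF5 W12 it was at -1.43 and well above background. Low Tcf21 was not limited to arrays with high Ucp1, because the W6 arrays of HFC (-4.36), HF5 (-6.28), HF20 (-8.56) and HF75 (-5.90) were low too, with Ucp1 between -5.85 and -3.24 there. LFC W6 had Tcf21 at -1.79. Wt1, another gene of visceral fat and mesothelium, was at -7.06 on LFC D6, -7.20 on LFC D10 and -3.87 on HF5 W12, not well above background on any of them, against a median of 0.31.

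**Figure D2:**
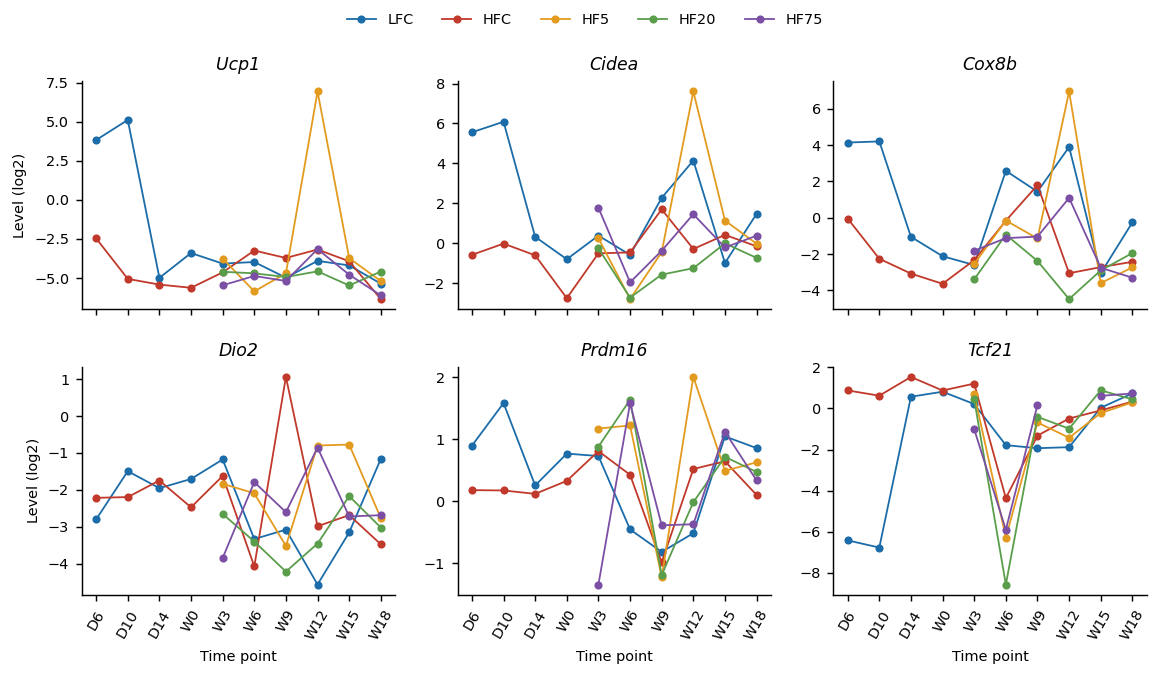
Level (log2, relative to the 75th percentile of the array) of Ucp1, Cidea, Cox8b, Dio2, Prdm16 and Tcf21 at each time point, 1 array per point and 1 line per diet. Time points are evenly spaced and not to scale. Ucp1 is high on LFC at D6 and D10 and on HF5 at W12, while Tcf21 is low on LFC at D6 and D10 and on 4 diets at W6.

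Within a time point, arrays of different diets were set side by side, with no replicate and no test. At D6 the brighter Ucp1 probe was 78.3-fold higher on LFC than on HFC, Cidea 70.6-fold, Cox8b 18.1-fold, Cox7a1 14.1-fold and the brighter Cpt1b probe 3.42-fold. Where HFC was not well above background, Elovl3 was at least 26.7-fold higher on LFC. The other Ucp1 probe was 70.8-fold higher, a plain ratio to its own HFC signal, which was not well above background. Tcf21 was at least 112-fold lower on LFC. After normexp the log2 differences were 2.91 for the dimmer Ucp1 probe, 2.14 for Elovl3 and -2.95 for Tcf21. The brighter Ucp1 probe kept 5.47 and Cidea 5.78. The normexp offset of 50 scanner units raises signals near background by itself. The smaller values thus do not show how these ratios depend on background. At least 2-fold higher on LFC D6 were 8 of 12 member probes, beside 12.5% of the 31000 probes well above background on either array. Dio2 and both Ppargc1a probes were lower on LFC D6, by less than 2-fold, and after normexp correction Dio2 (0.22 log2) and the dimmer Ppargc1a probe (0.44 log2) were higher there.

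At D10 the brighter Ucp1 probe was 1149-fold higher on LFC than on HFC, which was the largest ratio of the 31125 probes compared. Cox8b was 87.5-fold, Cidea 68.9-fold, Cox7a1 23.6-fold and the Cpt1b probes 7.99-fold and 5.83-fold higher. Elovl3 was at least 36.5-fold higher. The other Ucp1 probe was 685-fold higher, a plain ratio to its own HFC signal, which was not well above background. Tcf21 was at least 113-fold lower. After normexp the log2 differences were 8.13 for the brighter Ucp1 probe (10.17 without it), 5.49 for the other, 2.51 for Elovl3 and -3.00 for Tcf21. Of the 12 probes 9 were at least 2-fold higher on LFC D10, beside 23.7% of all probes.

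At W12 HF5 was compared with HFC and LFC of the same scan day. Ucp1 was 1103-fold and Cox8b 1019-fold higher on HF5 than on HFC, ranks 1 and 2 of 33205 probes. Cidea was 237-fold, Cox7a1 98.2-fold and the brighter Cpt1b probe 27.4-fold higher, and Elovl3 at least 110-fold. After normexp these differences were far smaller, with log2 values of 5.37 in place of 10.11 for Ucp1, 5.31 in place of 9.99 for Cox8b, 3.95 in place of 7.89 for Cidea, 2.66 in place of 6.62 for Cox7a1, 1.95 in place of 4.78 for Cpt1b and 4.11 for Elovl3. All 11 member probes measured on both arrays were at least 2-fold higher on HF5 W12, beside 29% of all probes. Of these the dimmer Ppargc1a probe (2.99-fold) was not well above background on HF5 W12, so its ratio rests on background there. The second Ucp1 probe is not among the 11, since its spots were left out on HFC W12. Prdm16 was 2.79-fold higher, but after normexp correction its log2 difference was -0.41. Against LFC W12, an array with high adipocyte markers, Ucp1 was 1824-fold higher, Cox7a1 21.0-fold, Cidea 11.004-fold and Cox8b 8.28-fold, and 10 of 12 probes were at least 2-fold higher beside 37.9% of all probes. After normexp correction the log2 difference of HF5 W12 to LFC W12 stayed above 0 for Ucp1 (5.75) and Cox7a1 (0.39). It was -0.24 for Cidea and -0.87 for Cox8b. The direction for Cidea and Cox8b thus differs with the processing. The normexp offset of 50 scanner units is above the 75th percentile of HF5 W12 (25.8), so background and offset cannot be told apart.

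The cells behind these levels were looked at through marker lists, each scored by the mean level of its genes on an array. Genes not well above background enter a score too, and the lowest level well above background differs by array. It was -2.75 on HF5 W12, -5.94 on LFC D6 and -6.20 on LFC D10, and -8.76 on HFC D14. Low scores on dim arrays can thus lie at background. The adipocyte list (10 genes) scored 4.33 on LFC D6, 2.91 on LFC D10 and 4.43 on HF5 W12, ranks 6, 12 and 5, inside the range of -0.57 to 5.42 on the other arrays. The highest adipocyte scores belonged to arrays other than these 3, with HF75 W12 at 5.42 and LFC W12 at 5.05. On HF75 W12 Ucp1 was at -3.15 (brighter probe) and -2.95, ranks 5 and 4 of all arrays. On LFC W12 Ucp1 was at -3.90 and -7.44. Leptin, which white adipocytes secrete, was at -3.59, -4.93 and -2.49 on the 3 arrays, well above background on LFC D6 alone, against a median of -2.79 on the others, while Fabp4 was at 8.10, 7.83 and 10.31 against a highest other level of 8.03. In bulk samples, fewer cells of a type and less RNA per cell cannot be told apart.

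Skeletal muscle genes (15) scored 0.71 on LFC D6, -0.76 on LFC D10 and 3.69 on HF5 W12, against a median of -2.34. LFC W6 was highest with 4.38, and there Ucp1 was at -3.98. The muscle score of HF5 W12 had rank 2, so muscle genes and brown fat genes were high together on that array. All 15 muscle genes had HF5 W12 among their 3 highest arrays, but the share of all probes that did was not counted. Of all probes, 29% were at least 2-fold higher on HF5 W12 than on HFC W12. The mesothelial list (7 genes) scored -4.67, -5.20 and -3.01 on the 3 arrays, against a median of 0.27, and on the W6 arrays it was -5.02 in HFC, -4.43 in HF5, -4.68 in HF20 and -2.45 in HF75, but 0.14 in LFC. The epididymis list (8 genes) scored -6.04, -6.26 and -3.62. The sperm and testis list (7 genes) scored -3.63, -4.34 and -1.91, and both lists were inside the range of the other arrays. The epididymis scores of the 3 arrays lie below the lowest level well above background there, as does the mesothelial score of HF5 W12. Macrophage genes (11) scored 1.09, 0.08 and -0.07, ranks 18, 31 and 33. The other arrays had a median of 1.01 and a range of -1.17 to 2.65. Liver genes (7) scored -2.67, -3.66 and -1.81, against -6.42 to -0.14. Which cells carried the brown fat transcripts was not tested.

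Other genes of brown and beige fat were mixed. Of 11 brown fat identity genes on the array, 0 had the same 3 arrays on top as Ucp1, beside 1.32% of all probes. LFC D6 was among the 3 highest arrays for 0 of the 11, LFC D10 for 2 and HF5 W12 for 6. The share over all probes was not counted for single arrays, so these counts have none beside them. Zic1, a transcription factor of brown precursors, was at -0.96 on LFC D10 and -0.88 on HF5 W12, where it was highest. On LFC D6 it was at -6.33, not well above background, against a median of -8.09. Otop1 was at -4.02, -2.75 and -1.82 on LFC D6, LFC D10 and HF5 W12 (there not well above background), against a median of -7.88. The brown identity score had rank 9 on LFC D6, 2 on LFC D10 and 1 on HF5 W12. These ranks are not corrected for the background level, which differs between arrays and was highest on HF5 W12. The beige list (7 genes) had ranks 5, 38 and 30. Hoxc9, a positional gene of white depots behind the shoulder region, was at -0.19 on LFC D6, -6.28 on LFC D10 and -3.34 on HF5 W12, against -1.50 to 1.93 on all other arrays. LFC D10 and HF5 W12 were below all other arrays for Hoxc9 and not well above background, and LFC D6 was inside their range.

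**Figure D3:**
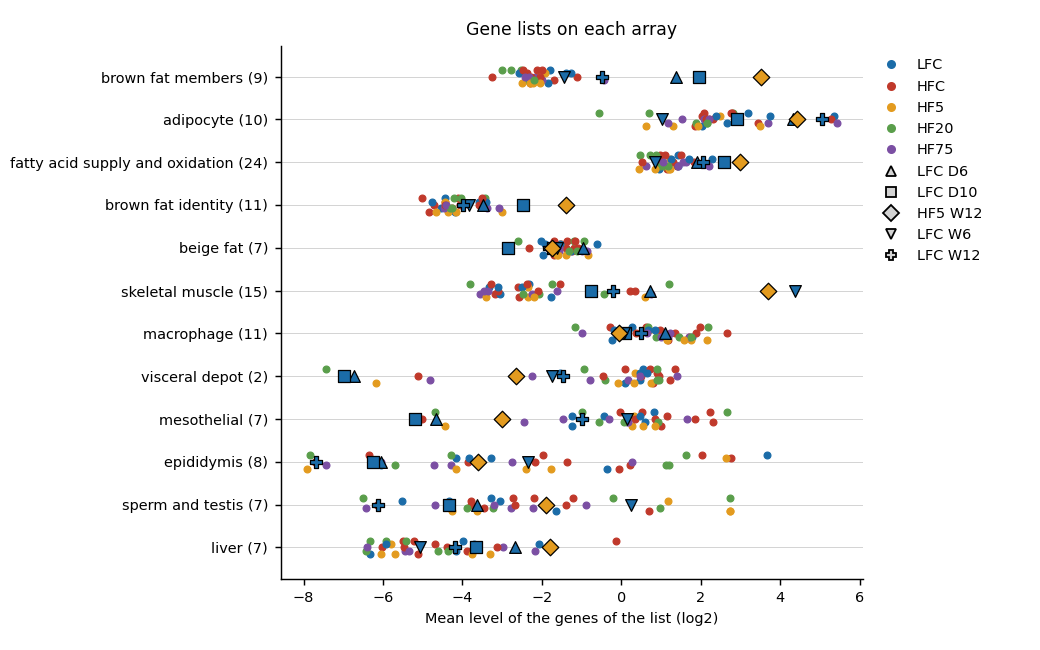
Mean level (log2, relative to the 75th percentile of the array) of the genes of each list on each of the 38 arrays, with the number of genes in brackets and colours for diets. LFC D6, LFC D10 and HF5 W12 are the 3 highest arrays for the brown fat members and among the lower arrays for the visceral and mesothelial lists, while LFC W6 leads the muscle list.

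The fatty acid list (24 genes of lipolysis, uptake and oxidation) scored 1.91 on LFC D6, 2.57 on LFC D10 and 2.98 on HF5 W12, ranks 6, 2 and 1. Acadvl, the first enzyme of long chain fatty acid oxidation in mitochondria, was the 1 gene of the 24 with the same 3 arrays on top. The share over all probes was 1.32%. Acadvl was at 5.45, 6.17 and 7.02 against at most 5.41 elsewhere. Mgll and Gpihbp1, for lipolysis and uptake from the blood, were at 6.56 and 7.12 on LFC D10, where each was highest. Fabp3, a fatty acid carrier, was at 6.29 on HF5 W12, where the muscle genes were high too. It was at most at 2.43 on the 35 arrays other than the 3. In the adrenergic list (12 genes) 0 had the same 3 arrays on top, beside 1.32% of all probes, and the score ranked 6, 5 and 7. The receptor Adrb3 was at 2.04, 1.19 and 2.42, below its highest level of 5.65 on HF75 W12. The transcription list (17 genes) ranked 7, 6 and 5, with Pparg at 5.30 on LFC D10, its highest level. The creatine and calcium cycling list (8 genes), for heat without UCP1, ranked 17, 32 and 1.

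Of 21 genes of the same families, 0 had LFC D6, LFC D10 and HF5 W12 on top, beside 1.32% of all probes. A list of this size is too short for a count of 0 to differ from that share. Ucp2, the widely expressed relative of Ucp1, was at 0.99, 0.46 and -0.96 against a median of 0.19. Ucp3, another relative, was at -3.37, -4.60 and -3.86, the last not well above background, with its highest level of -0.74 on LFC W12. Cpt1a, the liver form of Cpt1b, was at 1.61, 1.57 and 0.72, all below its median of 1.99. Cox8a, the common form of the subunit encoded by Cox8b, was at 6.37, 5.64 and 6.13 inside a range of 4.61 to 7.12, and Cox7a2 at 4.70, 4.24 and 5.05 inside 2.47 to 5.98.

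The first comparison asked whether the high fat diet alters these genes over the whole course, with the time point as a block in limma, two-sided. Of 31030 probes 0 passed an adjusted p of 0.05 (0%), and 2818 (9.08%) had an unadjusted p below 0.05. Of the members, 10 probes of 8 genes passed the filter on low values and 0 passed the test. Unadjusted, 4 of 10 were below 0.05, all lower in HFC, beside 4.51% of all probes. The median estimate was -0.76 log2 for the 10 member probes and 0.0063 for all probes. Cox8b had an estimate of -2.51 (SE 0.75, n = 10 time points, adjusted p 0.545 in limma), with HFC lower at 7 of 10 time points. Cidea had -2.11 (SE 0.73) with HFC lower at 8, the brighter Cpt1b probe -0.93 (SE 0.34) at 8 and Cox7a1 -1.23 (SE 0.52) at 9 of 10 time points, all with the same adjusted p. Ucp1 had -1.77 (SE 1.03, adjusted p 0.564 in limma), with HFC lower at 6 of 10. Dio2 was at 0.20 (SE 0.50), Prdm16 at -0.20 (SE 0.23) and the Ppargc1a probes at -0.16 (SE 0.35) and -0.32 (SE 0.31).

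These estimates rest in large part on 2 time points. Without D6 and D10 that of Ucp1 was -0.15 (SE 0.36), of Cidea -1.11 (SE 0.53), of Cox7a1 -0.49 and of the brighter Cpt1b probe -0.56, that of Prdm16 was 0.01, and 1 of 10 member probes (Cox8b, -1.80) had an unadjusted p below 0.05. The median over the members was then -0.35, and 1100 of all 30920 probes were below 0.05 unadjusted. W12 was the third time point with large differences, -6.94 for Cox8b and -4.43 for Cidea, where LFC W12 had high adipocyte markers. Without D6, D10, W6, W9 and W12 the count was 0, Ucp1 was at -0.79 (SE 0.36), Cox8b at -1.02 (SE 0.46) and Cox7a1 at 0.03, the opposite sign. With array brightness as a covariate 0 member probes were below 0.05 unadjusted and the estimate of Ucp1 was 0.56, again the opposite sign. The part of brightness and of cell content in the difference between the diets was not tested beyond this.

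**Figure D4:**
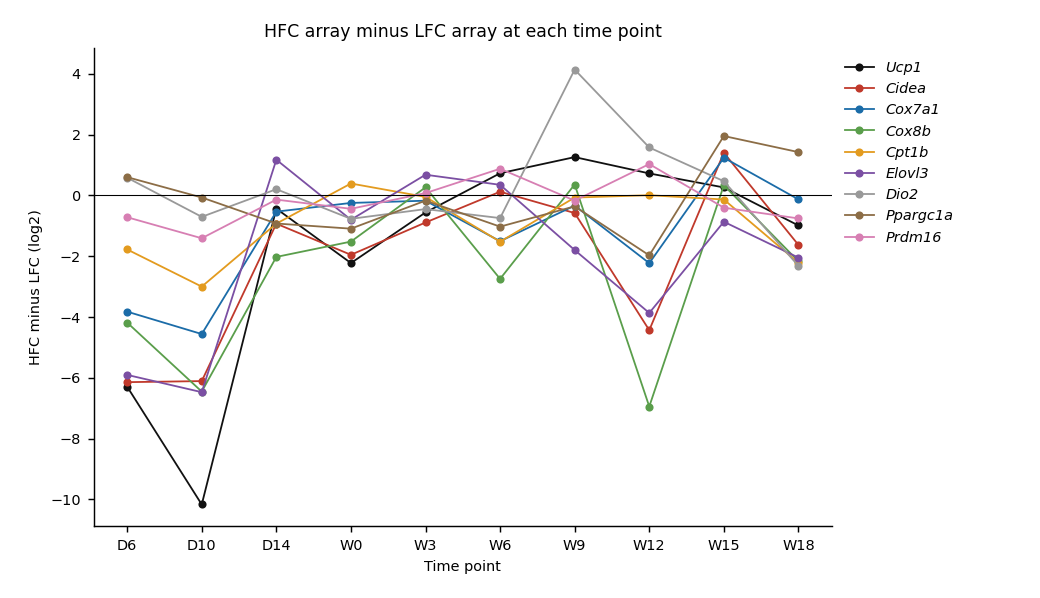
HFC array minus LFC array (log2) at each of the 10 time points for 9 genes, with the brighter probe where a gene has 2. The differences of Ucp1, Cidea, Cox7a1, Cox8b and Elovl3 are large at D6 and D10, reaching -10.17 for Ucp1 at D10, and those of Cox8b and Cidea are large again at W12.

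In weeks 3 to 18 alone, HFC minus LFC was fitted with all 5 diets (33711 probes). Of these 0 passed (0%) and 1087 (3.22%) had an unadjusted p below 0.05, with 0 of 10 member probes in either count. Ucp1 was at 0.24 (SE 1.11), Cox8b at -1.81 (SE 1.14) and Cidea at -0.999 (SE 0.92) log2. The median was -0.38 over the members. W12 carried much of this, and without it Cox8b was at -0.79 (SE 0.60), Cidea at -0.31 (SE 0.61) and Ucp1 at 0.14 (SE 0.44), with a median of -0.13.

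The next question was whether KAL-1 alters these genes on the high fat diet. For HF5 minus HFC 0 probes passed (0%) and 1594 (4.73%) were below 0.05 unadjusted, among them 1 of 10 member probes, Cpt1b (GT_Mm_44k_52_P625508), at 0.95 (SE 0.44, n = 6 weeks, adjusted p above 0.99 in limma). The median estimate was 0.80 log2 for the members and -0.03 for all probes. Ucp1 was at 1.46 (SE 1.11), Cidea at 0.83 (SE 0.92), Cox7a1 at 0.76 (SE 0.76) and Cox8b at 0.95 (SE 1.14). HF5 W12 decided these values. Without it the estimates were -0.30 (SE 0.44) for Ucp1, -0.31 for Cidea, -0.32 for Cox7a1 and -0.41 for Cox8b, the median over the members was -0.21 and 0 member probes were below 0.05 unadjusted.

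For HF20 minus HFC 0 passed (0%) and 516 probes (1.53%) were below 0.05 unadjusted, with 0 of 10 members and a median of -0.48 log2 over the members. Cidea was at -1.21 (SE 0.92) and Cox8b at -1.19 (SE 1.14). The median of HF20 rests on W9, being -0.06 without that week, and it was -0.05 with scan day as the block and 0.10 after normexp. For HF75 minus HFC 0 passed (0%) and 659 (1.95%) were below 0.05 unadjusted, with 0 members and a median of 0.03, which was -0.11 without W12 and 0.37 without W9. For the mean of the doses 0 passed (0%) and 577 (1.71%) were below 0.05 unadjusted, with 0 members and a median of 0.07. Without HF5 W12 the mean of the doses gave a median of -0.27, the opposite sign, with Ucp1 at -0.56 (SE 0.34). All dose contrasts share the HFC arrays. Ucp1 was at -0.64 (SE 1.11) in HF20, -0.75 (SE 1.11) in HF75 and 0.02 (SE 0.91) in the mean of the doses. The SE of Ucp1 rests on W12, because all diets share 1 estimate of the spread. Without that week it was 0.44, with Ucp1 at -0.49 in HF20 and -0.91 in HF75, neither past the threshold.

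**Figure D5:**
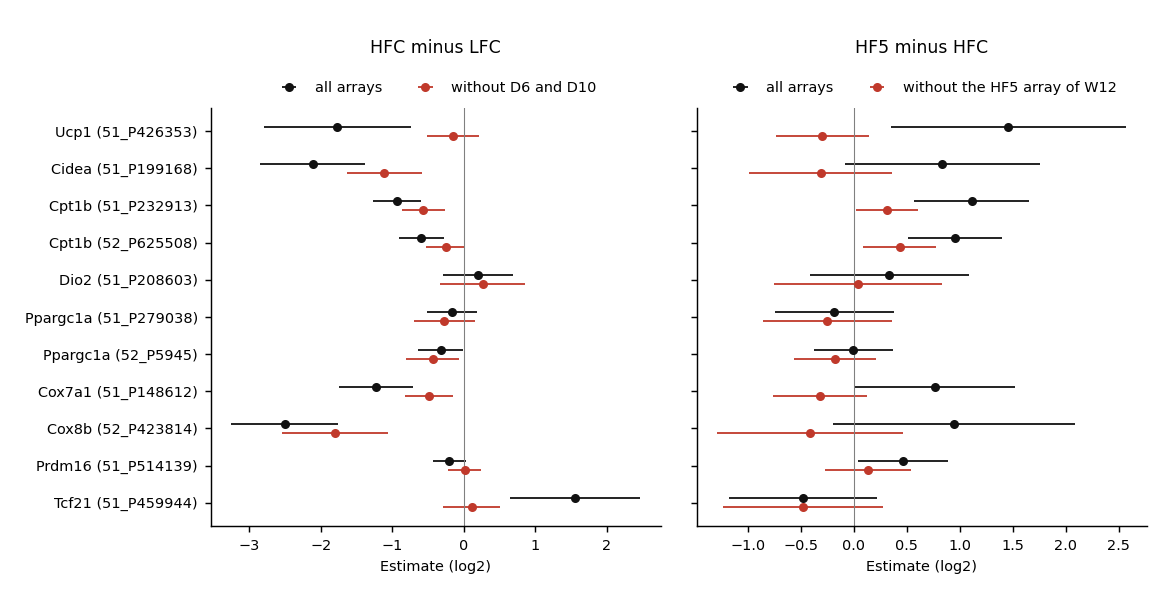
Estimates (log2) with bars of 1 SE from limma for the 10 member probes tested and Tcf21, for HFC minus LFC over 10 time points (left) and HF5 minus HFC over 6 weeks (right), with all arrays in black. Without D6 and D10, or without the HF5 array of W12 (red), the estimates of Ucp1, Cidea, Cox7a1 and Cox8b lie closer to 0 or on its other side.

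Within a diet, a slope on elapsed day was fitted. In LFC 0 of 28468 probes passed (0%) and 1108 (3.89%) were below 0.05 unadjusted, among them 1 of 10 member probes, Ucp1, at -0.30 log2 per week (SE 0.13, n = 10 arrays, of which D14 and W0 share a day, adjusted p 0.997 in limma). Without D6 and D10 its slope was -0.04 (SE 0.04). In HFC 0 of 30876 probes passed (0%) and 2431 (7.87%) were below 0.05 unadjusted, with 0 members. There the slope of Ucp1 was -0.01 (SE 0.06) and that of Cidea 0.07 (SE 0.05) log2 per week. Age, time on the diet, slide and scan day go together in these slopes and cannot be told apart.

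In the lists of pathway and marker genes, the difference between HFC and LFC over 10 time points gave 0 genes past the adjusted threshold. The counts below stand beside 4.51% of all probes that were lower in HFC with an unadjusted p below 0.05, and 9.08% in either direction. Unadjusted p values below 0.05 were found for 5 of 24 genes of fatty acid supply and oxidation, all lower in HFC, with a list median of -0.47 log2. Gpihbp1 (-1.25) and Lipe (-1.10), a lipase, had the lowest estimates, and Gk (0.32) and Acsl5 (-0.05) the highest. In the transcription list 3 of 17 were below 0.05, Pparg (-1.14), Esrra (-0.41) and Rxra (-0.54), and in the adrenergic list 1 of 12, Prkaca (-0.51). Of the adipocyte genes 2 of 10 were below 0.05 and lower (list median -0.61), and of the macrophage genes 5 of 11 were below 0.05 and higher (list median 0.74). Family relatives gave 2 higher and 3 lower of 21, the mesothelial list 1 higher of 7, and the brown identity, beige, cycling, muscle, visceral, sperm, epididymis and liver lists 0. Without D6 and D10 the counts were 0 of 24 for fatty acids, 1 of 17 for transcription, 0 of 12 for adrenergic and 0 of 10 for adipocyte genes, while 2 of 11 macrophage genes and 1 of 7 mesothelial genes were higher and 1 of 21 relatives lower. In that fit 1100 of all 30920 probes were below 0.05 unadjusted, 827 of them higher in HFC.

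The genes whose levels followed Ucp1 most closely over the 38 arrays were found by Pearson's r with its brighter probe among 38631 probes, as a description. The other Ucp1 probe had an r of 0.91. The 10 genes of highest r, from 0.89 to 0.83, were LOC100045393, Oxt, Cox7a1, Sez6l2, LOC100046468, Gm9734, Pcdh1, Tas1r3, Trub1 and NR_015606, named as on the array. Cox7a1 (0.84) was the 1 member among them. Cidea had an r of 0.80 (rank 31), the brighter Cpt1b probe 0.79 (rank 41), Elovl3 0.75 (rank 110) and Cox8b 0.73 (rank 134). Prdm16 had 0.40, Dio2 0.26, the Ppargc1a probes 0.11 and 0.14 and Tcf21 -0.40. Without the 2 arrays of highest Ucp1 the r of the 10 genes lay between 0.42 and 0.66, and without LFC D6, LFC D10 and HF5 W12 between -0.08 and 0.37, where Cox7a1 had 0.12 and Cidea 0.20. The likeness rests on these 3 arrays, and all points share the array's brightness.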

How the data were processed

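The 38 one-colour arrays (Agilent, Cy3, total RNA) were grouped by the diet and time of their titles. Per the file headers, the deposited scanner intensity (gProcessedSignal) is background-subtracted by Agilent Feature Extraction. The series-wide table of the authors' log2 fold changes was not used. Control and outlier spots were left out, spots of a probe were averaged, and the log2 75th percentile of each array was subtracted from the log2 intensity. Precision is limited by the number of arrays, 1 per diet and time point.

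Differences were tested with limma 3.58.1 in R 4.3.3, with the time point as a block because arrays share a time and the design pairs them, on probes well above background on at least 0.5 of the arrays of 1 diet, with Benjamini-Hochberg adjustment at 0.05. HFC minus LFC used 20 arrays, and weeks 3 to 18 used 30 arrays of 5 diets. Whether arrays are separate animals or pools is not stated, so p-values measure the spread over time points. The code was tested on simulated data. A ratio to an array not well above background is a bound, from the lowest signal well above background there. Where the probe's own signal was higher, the plain ratio to that signal is given. Alternatives were quantile scaling, normexp (offset 50), other filters, array brightness, scan day, dose labels, no block, the methods' t-test and leaving out time points or arrays.

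The members, gene lists and tests were chosen with earlier results of these data known. By rule, named genes were the members, Tcf21, up to 4 genes of a list (the 2 highest and the 2 lowest differences) and the 10 genes of highest correlation with Ucp1. Other pathway and marker genes named in the text were chosen after their values were seen.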

Additional observations from a re-analysis of the deposited data

Results flagged for a closer look

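Each diet's highest and lowest array was compared with its neighbours for every member probe and Tcf21, and 13 of 65 groups held an array far from the others. For separate groups chance flags about 1 in 20 (3.25 of 65). These groups share arrays, and some are probes of the same gene, so no excess over chance can be read from the count. In HF5 the array of W12 was far above the other 5 for Ucp1 (6.93 on the brighter probe and 3.72 on the other), Cox7a1 (6.999), Cox8b (6.94), Cpt1b (2.77, brighter probe) and Elovl3 (-0.72). These 6 flags come from 1 array, the dimmest of the series, so they are not separate observations. In HFC, Dio2 was far above the rest at W9 (1.06), Prdm16 far below at W9 (-0.98) and Cidea far below at W0 (-2.76). Tcf21 was far below the rest at W6 in HFC (-4.36), HF5 (-6.28), HF20 (-8.56) and HF75 (-5.90), and in HF5 and HF20 it was not well above background there. The LFC arrays of D6 and D10 were not flagged, since each has the other as a near neighbour.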

How the results depend on the processing

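No member probe passed the adjusted threshold in any comparison under any alternative run. The counts below are member probes with an unadjusted p below 0.05, beside the same count over all probes tested. For HFC minus LFC over 10 time points (4 probes) the count was 5 under quantile scaling (2529 of 31030) and normexp (2733 of 31030). Without a filter it was 5 of 12 member probes (3963 of 40628). It was 4 of 9 with probes well above background on every array (2290 of 20496), and 3 with the methods' t-test (2837 of 31030). With array brightness as a covariate it was 0 (1917 of 31030). It was 1 without D6 and D10 (1100 of 30920). Without D6, D10, W6, W9 and W12 (chosen after seeing the data) it was 0 (1887 of 30792). Leaving out each time point gave 3 to 5 (1659 of 30614 to 3985 of 30878). With no replicate block, that is without the time point in the fit, it was 2 (1109 of 31030). For weeks 3 to 18 (0 probes) it was 1 under normexp (334 of 33711). Leaving out each week gave 0 to 1 there (420 of 32278 to 2104 of 31910). For HF5 minus HFC (1 probe) it was 2 with probes well above background on every array (190 of 13390). Leaving out each week gave 0 to 2 (550 of 33210 to 1997 of 31742). It was 0 under quantile scaling, normexp, array brightness and scan day as the block. With the dose of the diet label, the methods' t-test, no replicate block, or without HF5 W12 (chosen after seeing the data), it was also 0. Over all probes these counts of 0 stand beside 370 of 33711 to 1769 of 33697. For HF20 minus HFC (0 probes) the methods' t-test gave 2 (738 of 33711). For HF75 minus HFC (0 probes) leaving out each week gave 0 to 1 (274 of 33137 to 1455 of 33210). For the slope in LFC (1 probe) it was 0 under quantile scaling, normexp, the filter on every array and without D6 and D10. Over all probes these stand beside 207 of 28468 to 1466 of 28691. Leaving out each time point of the slope gave 0 to 1 (798 of 27946 to 1963 of 27401). The estimate changed sign in 10 of 218 alternatives for HFC minus LFC and in 21 of 171 for HF5 minus HFC, Tcf21 included. Beyond the arrays left out, the cause was not tested. Elovl3 and the dimmer Ucp1 probe were well above background on 8 and 5 arrays, so most of their levels lie at background.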
